A study of Homo sapiens and Mus musculus with 13 samples.

Results

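Interferon response genes are described here in a mouse haematopoietic progenitor line with and without NPM1c. The set holds 37 genes chosen by name, with earlier results of these data known. All 37 symbols were found among the 37991 genes listed in each mouse table. They fill 38 rows, because Psmb9 has 2 Ensembl identifiers. The study measured RNA by sequencing in human leukaemia cells and in mouse progenitors, and only the mouse libraries are used here. All mouse cells come from wild-type haematopoietic progenitors that HOXB8 keeps dividing, cultured in beta-estradiol and medium conditioned with SCF, the stem cell factor. The first group consists of 3 single-cell clones, labelled 4, 12 and 18, that carry an NPM1c knock-in made with CRISPR/Cas9, named NPM1ca-GFP in the series' design text. NPM1c is the leukaemia mutant of nucleophosmin that accumulates in the cytoplasm. The other group consists of 2 libraries of the parental HOXB8 line without the knock-in. No drug treatment and no interferon is named in the labels of either group, and neither strain, age nor sex is given. Each clone descends from 1 edited cell and has 1 library, so a difference between clones includes whatever that cell carried. Whether the parental replicates were grown apart is not stated, so p-values measure only the spread between these libraries, which may be technical.

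Type I interferons bind a receptor made of IFNAR1 and IFNAR2 and act through the kinases JAK1 and TYK2. STAT2 and IRF9 then act in the complex ISGF3, which switches on interferon-stimulated genes. Their products recognise foreign RNA, block steps of virus growth, tag proteins with ISG15 and cut peptides for display on MHC class I. RNA sensors such as MDA5 and RIG-I, which are interferon-induced themselves, signal through MAVS to start interferon production. Many of these genes also keep a basal level of transcription in blood cells without added interferon.

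The deposited values behave as whole read counts divided by 1 factor per library and are called normalised read counts below. The files corresponded to between 7358340 and 12235174 reads in 4 libraries and to 99557475 reads in parental replicate 2, which therefore counts rare transcripts with far less error than the rest. The clone numbers in the column headers differ from those in the sample titles, and clones are named here by title. The clone titled 4 has the header number 18, the clone titled 12 the number 4 and the clone titled 18 the number 12, so group membership is unaffected. Npm1, the targeted gene, stood at 14305, 15141 and 14144 in clones 4, 12 and 18, against 25695 and 25714 in parental replicates 1 and 2 (log2 fold change -0.82, SE 0.0673, adjusted p = 0.000533, limma). Mutant and normal transcripts are not separated in that value. The progenitor genes Kit, Cd34, Flt3, Ptprc, Myb, Gata2, Mpo and Cd33 were all read in every library, 3 of them higher and 2 lower in the clones. Their summed normalised read counts were 78630 to 82897 in the clones and 94852 to 103960 in the parental libraries. Flt3 and Cd33 were the 2 called lower (adjusted p = 0.0117 and 0.00202, limma). Without Mpo, which did not pass, the sum was not lower in the clones. Mpo had 7872, 13845 and 20009 in clones 4, 12 and 18, against 42873 and 38610 in the parental libraries (adjusted p = 0.0629, limma).

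Among the interferon response genes, 7 were lower in the knock-in clones and none was higher. The 7 were Ifih1, Adar, Stat2, Trim25, Tap1, Ifit2 and Mx2. A gene was tested where its mean over the 5 libraries was at least 10, which 32 of the 37 members reached, and a call is an adjusted p under 0.05 in limma over all 13132 genes tested. By this rule 8.49% of all genes tested were lower and 7.51% higher in the clones, against 7 of 32 members lower (21.9%) and 0 of 32 higher. Unadjusted p-values under 0.05 numbered 7 downward and 3 upward. Their share over all genes was not counted, here or for the lists below. The same 7 were called lower by edgeR's quasi-likelihood test and by DESeq2 on the recovered reads. Each of these tools also called 1 member higher, Zbp1 with edgeR and Samhd1 with DESeq2. Of all genes tested, edgeR called 8.96% lower and 7.84% higher, and DESeq2 10.5% lower and 9.88% higher. Fold changes below 0 were found in 25 of the 32 members (78.1%) and in 48.9% of all genes tested, and the median log2 fold change was -0.22 over the tested members and 0.01 over all genes tested. Libraries of the groups did not overlap in 17 members (53.1%), while 50.2% of all genes tested showed the same, so that count alone is close to the background. By direction, 14 members (43.8%) had every clone below the parental libraries, against 25.8% of all genes tested, and 3 (9.38%) every clone above, against 24.5%. Of the 32 tested members, 4 had a mean under 10 in one of the groups and were tested only because of the other, namely Mx2, Zbp1, Oas2 and Usp18. Of these 4 only Mx2 is among the 7 called lower, and its place there is no support for the share. The edgeR call of Zbp1 is likewise no support for members being higher. These counts describe the members and carry no test of the set, which was chosen with earlier results of these data known. In bulk RNA, fewer cells that express a gene and less RNA per cell cannot be told apart.

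With fewer libraries the count of 7 was smaller, and so in most of these fits was the share of all genes called lower. It was 2 members without parental replicate 2 (3.05% of all genes tested), 3 without parental replicate 1 (4.38%), 4 without clone 12 (4.23%) and 4 without clone 18 (7.06%). Without clone 4 it was 6 (8.57%), of which 5 were among the 7, since Stat2 and Trim25 were lost and Irf7 was called. Ifih1 and Adar were called in each of these fits and under each of the other settings tried.

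Markers of other cell types differed between the groups as well. The summed normalised read count of 10 mast cell and basophil markers was 5944 to 8842 in the clones and 1304 to 3527 in the parental libraries, with 4 of 6 tested genes higher. The largest gene of that sum in every clone did not pass (adjusted p = 0.225, limma). It had 4388, 2748 and 3139 in clones 4, 12 and 18, against 2450 and 386.2 in parental replicates 1 and 2. Monocyte and macrophage markers, which 10 genes stand for, summed to 656.2 to 1083 in the clones and 379.1 to 400.3 in the parental libraries. That rise came from Emr1, the highest gene in every library. It had 937.5, 531.8 and 659.4 in clones 4, 12 and 18, against 153.8 and 190.5 in the parental libraries. Of 4 tested genes of this list only Emr1 was called, and C1qa, C1qb and C1qc had at most 4.103 in any library. Markers of plasmacytoid dendritic cells, a main source of type I interferon, summed to 1806 to 2126 in the clones and 2607 to 2824 in the parental libraries. Nearly all of that was Tcf4, while Siglech and Klk1 had no read. B cell markers summed to 764.0 to 1027 in the clones and 1423 to 1517 in the parental libraries, nearly all of it from Ebf1, with 2 of 4 tested genes lower, Ebf1 and Cd79b. Cd79b, a chain of the B cell receptor, had 0, 1 and 1 reads in clones 4, 12 and 18 and 52 and 591 in the parental libraries (adjusted p = 0.00208, limma), and Ms4a1 had no read. Erythroid and megakaryocyte markers summed to 2054 to 3133 in the clones and 323.5 to 390.0 in the parental libraries, mainly Itga2b. The globin gene Hbb-b1 had 25, 50 and 16 reads in clones 4, 12 and 18 and 0 and 5 in the parental libraries and was higher in the clones (adjusted p = 0.00221, limma), while the globin gene Hba-a1 had no read in any library. Stromal and endothelial markers summed to 7517 to 9184 and 3342 to 3543 in the same order, almost wholly Pecam1, with no read of Col3a1, Pdgfra or Cdh5, and T and NK cell markers to at most 2.052 in any library. Hbb-b1 was under the minimum of 10 in the parental libraries and was tested only because the clones were high. The same holds for 1 of the 4 mast cell and basophil genes called higher, which had no parental read. Cd79b was tested only because the parental libraries were high. The calls of Hbb-b1, Cd79b and that mast cell gene are therefore no support for a shift of cell types. The other mast cell and basophil genes called higher were above the minimum in both groups. So were Emr1, Itga2b and Pecam1, also higher, and Ebf1 and Tcf4, which were lower. Itga2b averaged 2161 in the clones and 209 in the parental libraries (adjusted p = 0.000112, limma). Ebf1 averaged 841 and 1314 in the same order (adjusted p = 0.0240, limma). The part of the marker differences in the interferon gene values was not tested.

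**Figure D1:**
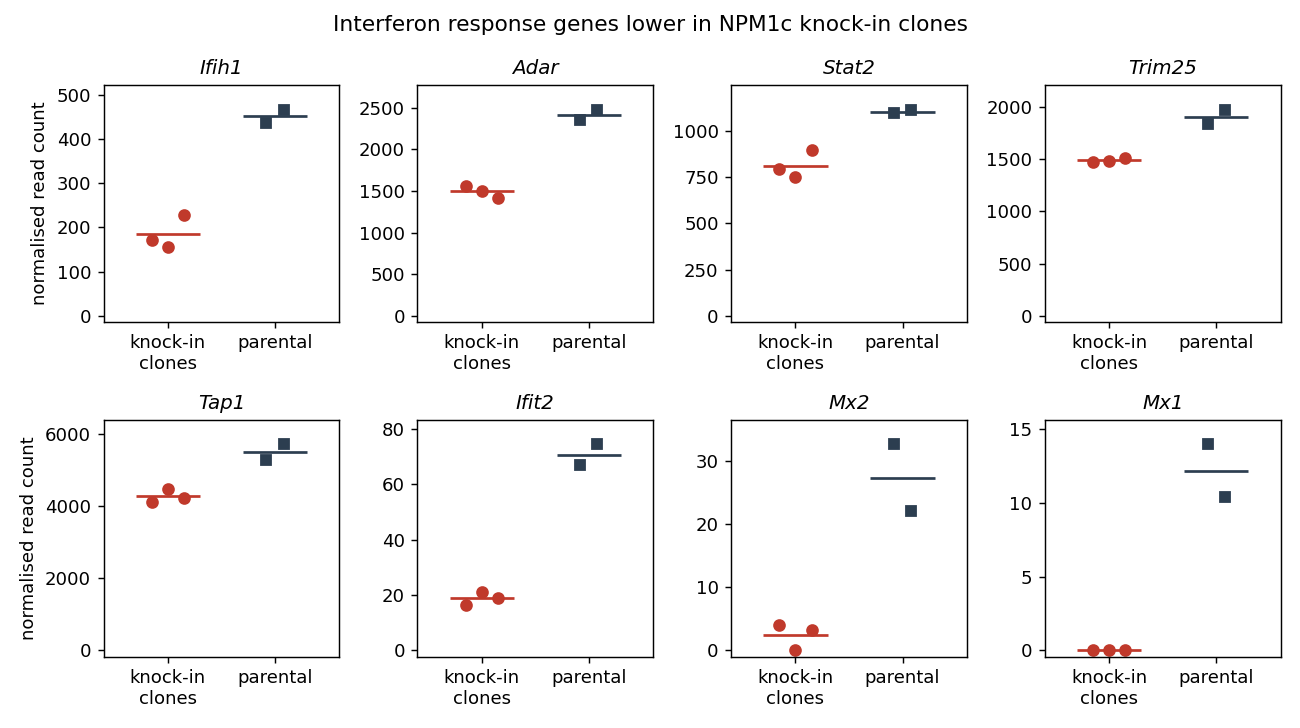
Normalised read counts (y axes, linear, each with its own scale) of 8 interferon response genes in the 3 NPM1c knock-in clones (red circles) and the 2 parental libraries (dark squares), with horizontal lines at the group means. In all 8 genes the clones lie below the parental libraries. Mx1 had no read in any clone and was too low to test.

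Neither receptor chain passed the test. Ifnar1 had normalised read counts of 1409, 1433 and 1373 in clones 4, 12 and 18, against 1493 and 1659 in the parental libraries. The clones lay below both parental libraries, yet the difference did not pass the test (log2 fold change -0.16, 95% interval -0.40 to 0.07, adjusted p = 0.304, limma). Ifnar2 averaged 1409 ± 148 in the clones (SD, n = 3) and 1487 ± 45.5 in the parental libraries (SD, n = 2), with overlapping groups (log2 fold change -0.08, 95% interval -0.35 to 0.19).

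Of the signalling factors, Stat2 alone passed the test. Stat2, the STAT protein particular to ISGF3, had normalised read counts of 791.9, 751.0 and 895.6 in clones 4, 12 and 18, against 1095 and 1116 in the parental libraries. The groups did not overlap, and the gene was 1.36-fold lower in the clones (log2 fold change -0.45, SE 0.121, adjusted p = 0.0440, limma). Without any 1 of clone 4, clone 12, parental replicate 1 or parental replicate 2 the adjusted p was 0.0623, 0.148, 0.105 and 0.149, and it was 0.0504 with library totals as the scaling and 0.0730 without the minimum level. Irf9, the DNA-binding partner of STAT2, averaged 475.1 ± 22.5 in the clones and 419.7 ± 90.4 in the parental libraries and did not pass (adjusted p = 0.462, limma). Irf1, a transcription factor strongly induced by interferon gamma, averaged 789.1 ± 101 and 842.8 ± 69.0 in the same order (adjusted p = 0.671, limma). Irf7, the factor that amplifies type I interferon production, had 209.2, 76.33 and 111.0 in clones 4, 12 and 18, against 180.2 and 192.7 in the parental libraries. Clone 4 lay above both parental libraries and the other clones below them, so the average fell short of the test (adjusted p = 0.339, limma). Without clone 4, Irf7 was lower in the remaining clones (log2 fold change -1.01, adjusted p = 0.0246, limma).

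Of the sensors, Ifih1 passed the test. Ifih1 encodes MDA5, which recognises long double-stranded RNA. Its normalised read counts were 172.3, 156.3 and 228.3 in clones 4, 12 and 18, against 436.6 and 466.7 in the parental libraries. All clones lay well below both parental libraries, and Ifih1 was 2.46-fold lower on the log2(value + 1) scale (log2 fold change -1.30, SE 0.195, adjusted p = 0.00543, limma). Ddx58 encodes RIG-I, which recognises short RNA with a 5′ triphosphate. It had 570.3, 529.4 and 499.3 in the clones, against 585.7 and 664.1 in the parental libraries, and did not pass (log2 fold change -0.23, 95% interval -0.54 to 0.09, adjusted p = 0.289, limma). Dhx58 encodes LGP2, a regulator of both sensors, and had 194.9, 92.33 and 169.6 in clones 4, 12 and 18, against 216.0 and 260.4 in the parental libraries. All clones were below the parental libraries, but clone 12 stood well under the others and the difference did not pass (log2 fold change -0.70, SE 0.321, adjusted p = 0.187, limma). Whether Ifih1 changed more than Ddx58 or Dhx58 was not tested.

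Zbp1, which senses Z-form nucleic acid and can trigger cell death, was the member with the highest positive fold change among those tested. Its normalised read counts were 22.57, 22.16 and 11.10 in clones 4, 12 and 18, from 11, 18 and 7 reads, against 3.107 and 5.649 in the parental libraries, from 2 and 37 reads. All clones lay above both parental libraries, and the limma test was not passed (log2 fold change 1.84, SE 0.573, adjusted p = 0.0684), whereas edgeR's quasi-likelihood test on the reads gave an adjusted p of 0.0447. DESeq2 gave 0.0827.

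Among the enzymes that act on double-stranded RNA and the nucleotide hydrolase SAMHD1, Adar changed and the other 6 members did not pass. Adar encodes ADAR1, which edits adenosine to inosine in double-stranded RNA and so keeps the cell's own RNA from triggering MDA5. It had normalised read counts of 1559, 1504 and 1417 in clones 4, 12 and 18, against 2358 and 2477 in the parental libraries. The groups were far apart relative to their spread, and Adar was 1.62-fold lower in the clones (log2 fold change -0.70, SE 0.0954, adjusted p = 0.00361, limma). Over the alternatives tried its adjusted p ran from 3.08e-09 to 0.0278. Samhd1, which destroys the nucleotides that viruses need for DNA synthesis, had 6052, 5308 and 4228 in clones 4, 12 and 18, against 3734 and 3796 in the parental libraries. Every clone was above both parental libraries, and the difference did not pass in limma (log2 fold change 0.45, SE 0.146, adjusted p = 0.0801) but did with DESeq2 (adjusted p = 0.0287) and without clone 18 (adjusted p = 0.0170, limma). Eif2ak2, which encodes the kinase PKR that halts translation on double-stranded RNA, averaged 291.6 ± 28.9 in the clones and 313.5 ± 19.3 in the parental libraries (adjusted p = 0.674, limma). The 2′-5′ oligoadenylate synthetases make a messenger molecule on double-stranded RNA, and the 4 members of the family, Oas1a, Oas2, Oas3 and Oasl2, had adjusted p-values of 0.503 to 0.923. Oas1a averaged 156.8 ± 27.4 in the clones and 171.9 ± 10.2 in the parental libraries, and Oasl2, a synthetase-like protein, 31.04 ± 6.29 and 35.65 ± 0.116 in the same order.

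Of the 3 members around the ISG15 modifier, 2 were tested and Trim25 passed. Trim25 is a ubiquitin ligase that helps RIG-I to signal and can attach ISG15. Its normalised read counts were 1475, 1478 and 1511 in clones 4, 12 and 18, against 1833 and 1975 in the parental libraries. The clones were nearly identical and 1.28-fold below the parental mean (log2 fold change -0.35, SE 0.0938, adjusted p = 0.0410, limma), a call that was lost without any 1 of the 5 libraries (adjusted p = 0.0550 to 0.192) and without the minimum level (0.0574). Usp18, the enzyme that removes ISG15 and dampens receptor signalling, averaged 9.853 ± 3.26 in the clones and 12.64 ± 1.90 in the parental libraries (adjusted p = 0.668, limma). Isg15 itself was too low to test, at 6.154, 4.924 and 7.926 in clones 4, 12 and 18 and at 7.768 and 6.565 in the parental libraries, from 3 to 5 reads in every library but the deep parental replicate 2, which had 43.

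Among the 7 members called lower, the antiviral effectors Mx2 and Ifit2 had the largest fold changes. Ifit2, which binds viral RNA and blocks its translation, had normalised read counts of 16.41, 20.93 and 19.02 in clones 4, 12 and 18, against 66.81 and 74.35 in the parental libraries. The groups were well separated, and Ifit2 was 3.63-fold lower (log2 fold change -1.86, SE 0.286, adjusted p = 0.00591, limma), or 0.0649 in adjusted p without parental replicate 2. Its relatives in the family had few reads. Ifit1 had 3, 0 and 1 reads in clones 4, 12 and 18 and 1 and 14 in the parental libraries, and Ifit3 had a single read, in parental replicate 1.

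The dynamin-like GTPases Mx1 and Mx2, which trap incoming virus, had few or no reads in the clones. Mx2 had normalised read counts of 4.103, 0 and 3.170 in clones 4, 12 and 18, from 2, 0 and 2 reads, against 32.63 and 22.14 in the parental libraries, from 21 and 145 reads. It was 10.1-fold lower on the log2(value + 1) scale (log2 fold change -3.33, SE 0.882, adjusted p = 0.0412, limma), and the adjusted p was 0.0523 without clone 18, 0.0626 with a pseudocount of 0.5 and 0.0732 without the minimum level. It was not tested without parental replicate 1, without parental replicate 2 or with a minimum mean of 50, where its mean fell under the minimum, so the call stood in 7 of 13 alternatives. Mx1 had no read in any clone and 13.98 and 10.38 in the parental libraries, from 9 and 68 reads. Taking 3 reads over all clones as the floor, Mx1 was at least 7.84-fold lower (at least 4.54-fold without clone 12, 5.28-fold without clone 18 and 5.86-fold without clone 4). With its mean of 4.87 it stayed under the minimum for testing, and in the limma fit without that minimum it was called lower. Mx1 and Mx2 are paralogs, and the sources used here do not say how reads that match both were counted.

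Rsad2, the radical enzyme viperin, had normalised read counts of 86.16, 86.17 and 42.80 in clones 4, 12 and 18, against 80.79 and 72.97 in the parental libraries, and did not pass (adjusted p = 0.768, limma). Bst2 encodes tetherin, which holds budding virus at the cell surface. It had 219.5, 200.7 and 225.1 in the clones, against 212.9 and 92.67 in the parental libraries. The parental libraries differed from each other more than the clones did, so Bst2 did not pass (adjusted p = 0.256, limma), and without parental replicate 1 it was called higher in the clones (log2 fold change 1.20, adjusted p = 0.0119, limma). Ifi44 had 1 read in clone 18, none in the other clones, and 0 and 1 in parental replicates 1 and 2.

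Parp9, Dtx3l and Parp14 did not pass. PARP9 and DTX3L form an ADP-ribosylation and ubiquitin ligase complex, and PARP14 is a related ADP-ribosyltransferase. Parp9 averaged 688.5 ± 75.9 in the clones and 823.1 ± 80.8 in the parental libraries, and Dtx3l 391.6 ± 64.6 and 459.9 ± 39.5 in the same order (adjusted p = 0.254 and 0.390, limma). Parp14 averaged 208.0 ± 59.7 in the clones and 187.0 ± 16.2 in the parental libraries (adjusted p = 0.779, limma). Ifi35, a cytoplasmic leucine zipper protein, averaged 316.2 ± 19.6 in the clones and 325.0 ± 4.79 in the parental libraries, with a 95% interval for the log2 fold change of -0.38 to 0.29. Rtp4, a chaperone of membrane receptors, averaged 33.45 ± 6.66 and 42.17 ± 4.70 in the same order (adjusted p = 0.461, limma).

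**Figure D2:**
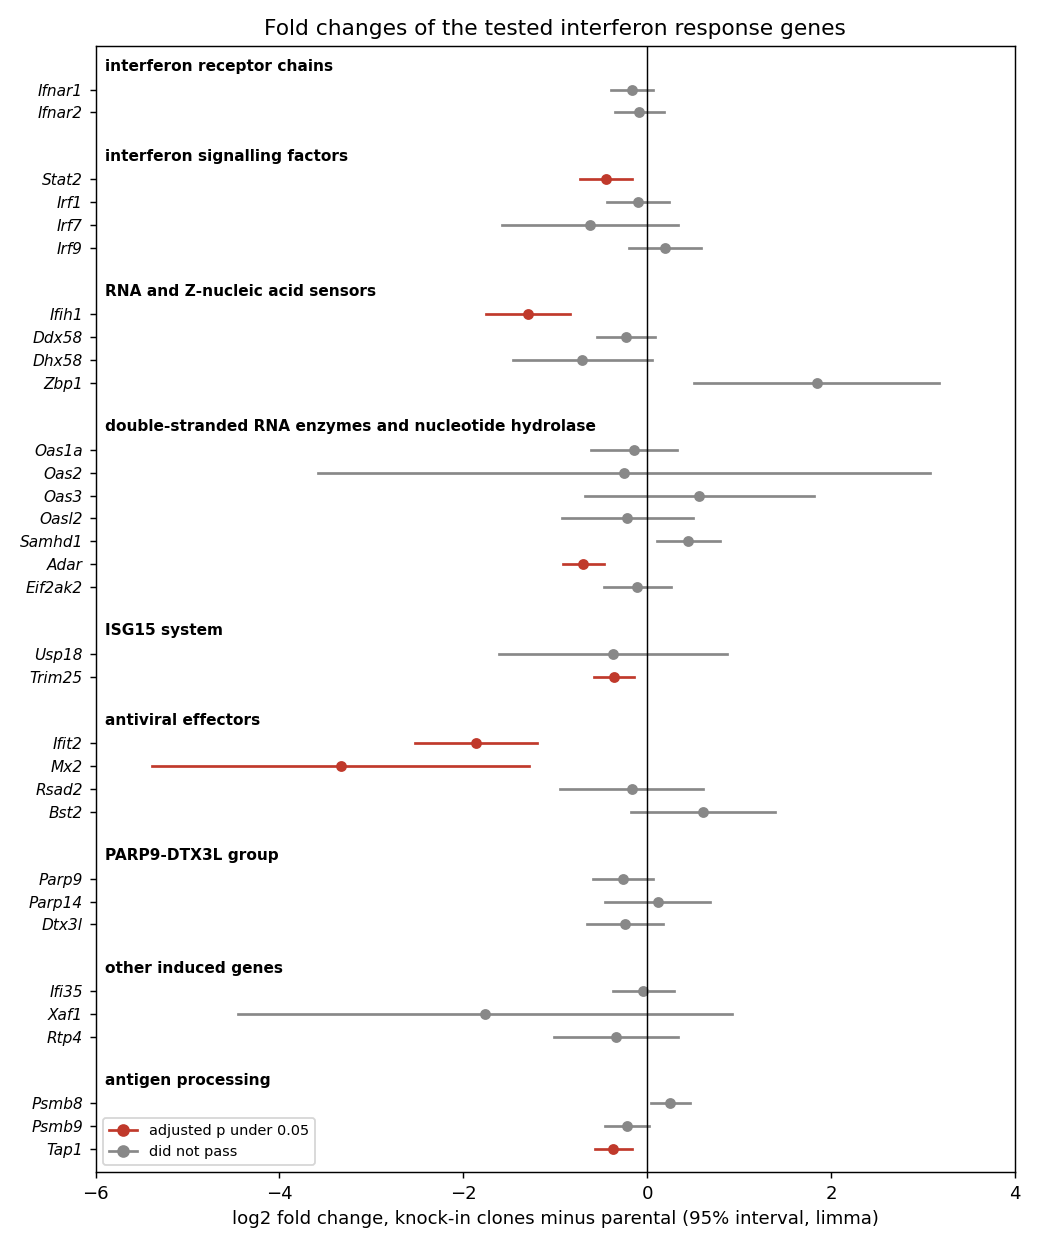
Log2 fold change of the knock-in clones minus the parental libraries (x axis) for the 32 tested interferon response genes, grouped by role. Points are limma estimates on log2(value + 1), bars are 95% intervals, and red marks an adjusted p under 0.05. The 7 red genes all lie below 0, and Oas2, Xaf1 and Mx2 have the widest intervals.

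Of the antigen processing members, Tap1 passed. Tap1, which together with TAP2 pumps peptides into the endoplasmic reticulum for MHC class I, had normalised read counts of 4101, 4475 and 4224 in clones 4, 12 and 18, against 5290 and 5709 in the parental libraries. The groups did not overlap, and Tap1 was 1.29-fold lower (log2 fold change -0.37, SE 0.0850, adjusted p = 0.0257, limma), a call lost without clone 12 (0.0668), clone 18 (0.0642), parental replicate 1 (0.0504) or parental replicate 2 (0.149). Psmb9, an immunoproteasome subunit whose gene shares a promoter region with Tap1, had 1629, 1679 and 1897 in the clones, against 1973 and 2055 in the parental libraries. The clones were all lower, and the difference did not pass (log2 fold change -0.22, SE 0.104, adjusted p = 0.201, limma). The second Psmb9 identifier held nearly the same values, 1641, 1678 and 1910 in the clones and 1986 and 2053 in the parental libraries. Psmb8, another immunoproteasome subunit, had 3414, 3424 and 3495 in the clones, against 3079 and 2714 in the parental libraries. Here the clones were all higher, and the difference did not pass (log2 fold change 0.25, SE 0.0911, adjusted p = 0.105, limma).

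The clones differed among themselves in several members. The highest clone was more than 2 times the lowest in 7 of the 32 tested members (21.9%), leaving aside Mx2, which had no read in clone 12. The same held in 8.62% of all genes tested, although low counts alone widen such ratios. The 7 were Xaf1, Irf7, Dhx58, Rsad2, Zbp1, Oas2 and Oas3. Xaf1, which promotes apoptosis, had normalised read counts of 57.44, 3.693 and 26.95 in clones 4, 12 and 18, against 73.02 and 59.23 in the parental libraries. Its reads numbered 28, 3 and 17 in the clones, and the 95% counting intervals were 38.2 to 83.0, 0.762 to 10.8 and 15.7 to 43.2. Clones 12 and 18 thus lay below both parental libraries beyond counting error, clone 4 did not, and the group difference did not pass (log2 fold change -1.76, SE 1.07, adjusted p = 0.323, limma).

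Oas2 had 30.77 in clone 4 from 15 reads, with a counting interval of 17.2 to 50.8, while clones 12 and 18 had 1 read each, at 1.231 and 1.585. The parental libraries were also unlike each other, at 1.554 from 1 read and 16.95 from 111 reads. Irf7 had counting intervals of 170.6 to 254.0 in clone 4, 58.5 to 97.8 in clone 12 and 86.5 to 140.2 in clone 18, so clone 4 stood apart. Dhx58 was lowest in clone 12, with an interval of 72.6 to 115.7, against 157.7 to 238.2 in clone 4 and 139.0 to 205.0 in clone 18. Rsad2 was lowest in clone 18 instead, at 28.2 to 62.3, against 62.1 to 116.5 in clone 4. Oas3 had 20.51, 12.31 and 25.36 in clones 4, 12 and 18, against 7.768 and 18.93 in the parental libraries, with intervals that overlapped among the clones. Those of Zbp1 overlapped as well, at 11.3 to 40.4, 13.1 to 35.0 and 4.46 to 22.9 in clones 4, 12 and 18. Over all tested members, clone 4 was the highest of the clones in 16 of 32 (50%), against 38.2% of all genes tested. These comparisons of single clones describe those libraries and were not tested, and the intervals cover counting error only.

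**Figure D3:**
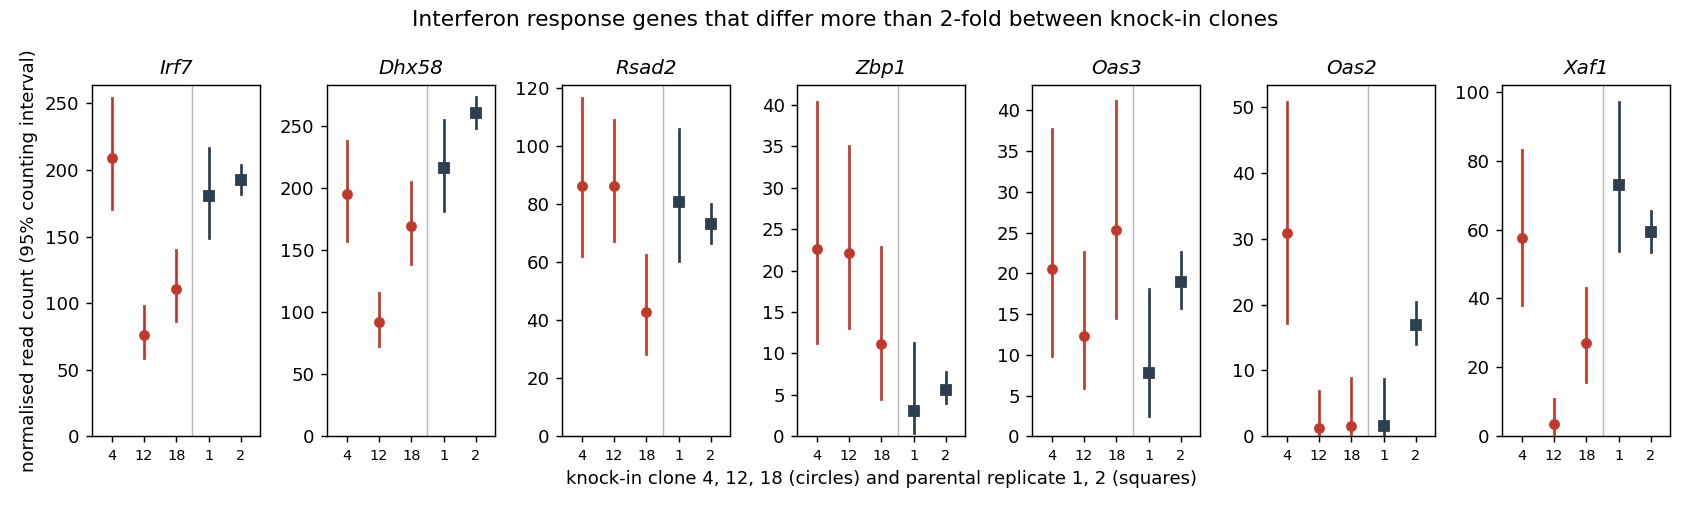
Normalised read counts (y axes, linear, each with its own scale) of the 7 tested members whose highest clone exceeds the lowest more than 2 times, in clones 4, 12 and 18 (red circles) and parental replicates 1 and 2 (dark squares). Bars are exact 95% Poisson counting intervals. Clone 4 lies near the parental libraries in Irf7 and Xaf1, while clone 12 is low in Irf7, Dhx58 and Xaf1.

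Other genes of the interferon pathway were read from 7 lists, also chosen with earlier results of these data known. Their shares describe the lists and carry no test. Interferon genes themselves had few reads. Of 17 found in the files 15 had no read in any library, and nearly all of the 4, 11 and 14 reads in clones 4, 12 and 18 and of the 5 and 72 in the parental libraries belonged to Ifnz, an interferon zeta (limitin) gene, which did not pass (adjusted p = 0.566, limma). Among 14 tested receptors, kinases and signal regulators, 1 was higher, 1 lower and 12 did not pass. That is 14.3% called, against 16% of all genes tested (median log2 fold change -0.03, against 0.01). Jak2, the kinase of the interferon gamma receptor and of many cytokine receptors, averaged 697.0 ± 57.6 in the clones and 453.4 ± 52.4 in the parental libraries (adjusted p = 0.0243, limma), and it was 0.0868 or 0.0883 without clone 12 or parental replicate 1 and 0.0516 without the minimum level. Ifngr1, the ligand-binding chain of the interferon gamma receptor, averaged 549.1 ± 46.3 and 759.4 ± 24.7 in the same order (adjusted p = 0.0488, limma), and lost its call without any 1 library (0.0714 to 0.136) and with TMM or library totals as the scaling (0.0508 and 0.0551) or without the minimum level (0.0728). Of 13 tested sensing adaptors and kinases, such as Mavs, Tbk1 and Irf3, none was called by limma, edgeR or DESeq2. In limma 16% of all genes tested were called at the adjusted threshold. At an unadjusted p under 0.05 this list had 5 genes, and the share of all genes at that looser threshold was not counted. The median log2 fold change of this list was 0.05.

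The GTPases induced by interferon gamma held the lowest fold changes of the lists, with 5 of 12 tested genes lower, none higher and 7 not passing (41.7% lower, against 8.49% of all genes tested, with a median log2 fold change of -0.81, against 0.01). The 5 belong to the guanylate-binding proteins, which coat and break open the vacuoles of intracellular pathogens. Gbp6 had normalised read counts of 73.85, 30.78 and 66.58 in clones 4, 12 and 18, against 915.1 and 875.1 in the parental libraries (log2 fold change -4.04, SE 0.368, adjusted p = 0.00118, limma). Gbp4 had 90.27, 41.86 and 77.67 in the clones, against 804.8 and 821.2 in the parental libraries (log2 fold change -3.59, SE 0.317). Clone 12 was the lowest in both. Gbp9, Gbp8 and Gbp7 were lower by 2.84, 2.64 and 1.05 on the log2 scale, and the 5 calls held under every alternative tried. Gbp2 and Gbp3 did not pass, and their clones ranged from 3.170 to 16.00 and from 30.77 to 118.9. The family is made of close paralogs whose reads may be shared. No gene of this list was called higher by limma or edgeR, 3 had an unadjusted p under 0.05 upward, and DESeq2 called 1 higher.

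Of 14 other MHC class I and immunoproteasome genes 4 were higher, none lower and 10 did not pass (28.6% higher, against 7.51% of all genes tested, with a median log2 fold change of 0.19, against 0.01). Calr, the chaperone calreticulin, averaged 22726 ± 1621 in the clones and 15195 ± 1655 in the parental libraries (adjusted p = 0.00701, limma). Tapbp, which bridges the transporter and MHC class I, averaged 2894 ± 98.3 and 2026 ± 21.2 in the same order (adjusted p = 0.00854, limma). H2-T23, a non-classical class I gene, averaged 2489 ± 236 and 1684 ± 103 (adjusted p = 0.0145, limma), a call lost without clone 12 or parental replicate 1 (0.0611 and 0.0620). Tap2 averaged 4397 ± 259 in the clones and 3316 ± 299 in the parental libraries (adjusted p = 0.0277, limma), opposite in direction to its partner Tap1, and did not pass without clone 12, clone 18 or parental replicate 2 (0.0948, 0.0743 and 0.160) or without the minimum level (0.0599). The classical genes H2-K1 and H2-D1 had log2 fold changes of -0.02 and 0.06. Of this list 1 gene had an unadjusted p under 0.05 downward, edgeR called none lower and DESeq2 1.

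Among 49 other tested interferon-induced genes, 4 were higher, 5 lower and 40 did not pass (18.4% called, against 16% of all genes tested), with a median log2 fold change of -0.03. Mov10, an RNA helicase, averaged 815.8 ± 72.0 in the clones and 1737 ± 79.2 in the parental libraries, and Sp100, a nuclear body protein, 1810 ± 49.5 and 2910 ± 158 in the same order (adjusted p = 0.00135 and 0.00319, limma). Oas1c, a relative of Oas1a, averaged 38.63 ± 5.04 and 123.1 ± 4.90 (adjusted p = 0.00355, limma). Ifi203 and Tor3a were also lower (log2 fold change -0.96 and -1.21), without passing when parental replicate 2 was left out (adjusted p = 0.0538 and 0.0552, limma), and Ifi203 neither without parental replicate 1 (0.0519). Rnf213, a giant ubiquitin ligase, averaged 1203 ± 343 in the clones and 531.8 ± 29.1 in the parental libraries, and Slfn5, a Schlafen family protein, 200.2 ± 86.5 and 62.27 ± 4.56 (adjusted p = 0.0142 and 0.0175, limma). Isg20, an exonuclease, averaged 152.2 ± 23.1 and 78.75 ± 16.9 (adjusted p = 0.0274, limma), and Parp12 40.56 ± 15.1 and 8.118 ± 7.09 (adjusted p = 0.0332, limma). The parental mean of Parp12, from 2 and 86 reads, was under the minimum of 10, so it was tested only because the clones were high, and its place among the 4 is no support for the list. Rnf213 and Slfn5 missed the threshold without either parental library (0.0539 to 0.0663), Slfn5 also without the minimum level (0.0574), Isg20 without clone 18, parental replicate 1 or the minimum level (0.0750, 0.120 and 0.0651), and Parp12 under 5 alternatives (0.0562 to 0.112).

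Of 12 tested genes that clear double-stranded RNA or restrain repeats, 1 was higher, 1 lower and 10 did not pass. That is 16.7% called, close to the 16% of all genes tested (median log2 fold change -0.12, against 0.01). Setdb1, which silences endogenous retroviruses by methylating histone H3, averaged 2277 ± 101 in the clones and 3787 ± 367 in the parental libraries (adjusted p = 0.00341, limma).

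**Figure D4:**
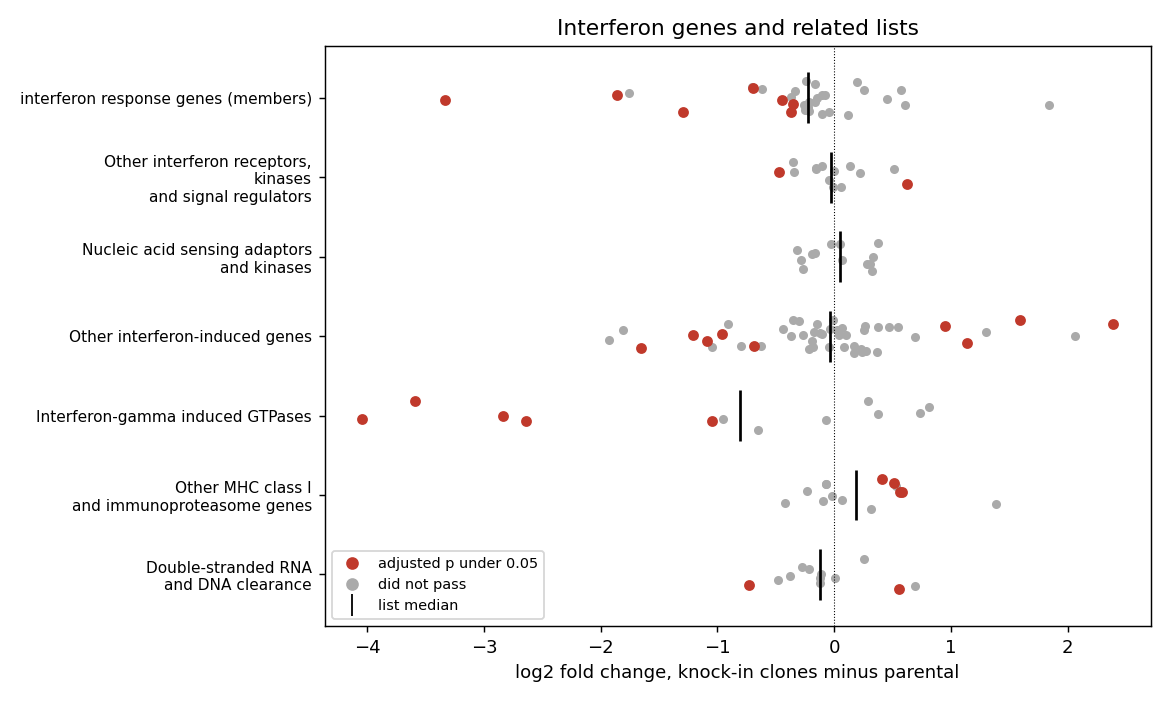
Log2 fold change of the knock-in clones minus the parental libraries (x axis) for each tested gene of the interferon response set and of 6 related lists (rows); vertical bars are list medians, red points have an adjusted p under 0.05 (limma), and vertical scatter within a row is for legibility only. Red points of the members and of the interferon gamma induced GTPases lie below 0, those of the MHC class I list above 0.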

How the data were processed

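Per the labels' protocols, RNeasy micro columns gave the RNA and NEBNext Ultra II the mouse libraries. Per the submitters' processing notes, the builds were mm9 and hg19 and the tools RSEM, DESeq2 and STAR 2.6.1, with no roles stated. Aligner settings, annotation release and strand use: not given in the sources used here. The authors deposited 1 normalised signal value per Ensembl gene and library. Whole reads could be recovered, since 100% of nonzero values were multiples of 1 step per library (tolerance 0.01). No sequences or coordinates are printed.

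The main test was limma 3.58.1 (R 4.3.3; trend, robust) on log2(value + 1), clones minus parental, over genes with a mean of at least 10, with Benjamini-Hochberg adjustment over 13132 genes. Such fold changes can understate changes of low genes, as in Mx2 (log2 fold change -3.33, against -3.59 with edgeR). They can also be larger where a single library is near 0, as in Xaf1 (-1.76, against -1.26 with edgeR). edgeR 4.0.16 (quasi-likelihood, TMM) and DESeq2 1.42.0 on recovered reads were alternatives, and edgeR called 2206 genes. Tests were checked on simulated data. Floors are 3 reads per group, and they and the intervals cover counting error only. Every pair of replicates differed by more than counting error (chi-square per degree of freedom 6.17 to 29.2). Members and lists were chosen with earlier results of these data known.

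Members were given in full where they passed, did not overlap at 1.5-fold or more, or had no read in a group, and up to 3 genes per list and direction were named by smallest p. Gbp7, Gbp8, Gbp2, Gbp3, Tap2, Ifi203, Tor3a, Parp12, H2-K1, H2-D1, B2m and Psmb10, and the members described outside that rule, were named after their values were seen. The 8 human libraries were not used here. A few withheld genes are counted in their lists and not reported here by name.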

Additional observations from a re-analysis of the deposited data

How the results depend on the processing

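No paired analysis was possible because the mouse groups share no replicate numbers in the labels. Leaving out 1 library at a time gave 990 to 2115 genes called in all (2101 with all libraries), 468 to 1230 higher and 400 to 1126 lower, 0 to 1 members higher and 2 to 6 members lower. The totals were lowest without parental replicate 2 (990) and without clone 12 (1023). Where a parental library was left out, the remaining one was assumed to vary like the clones. With edgeR or DESeq2, 1 member was called higher, against none. Counts of genes called under the other settings stayed within 1.5 times. Directions turned only in members that did not pass. Log2 fold changes over leaving out 1 library ran from -0.22 to 0.0069 for Oas1a, -1.66 to 0.42 for Oas2, -0.023 to 1.16 for Oas3, -0.33 to 0.16 for Rsad2 and -0.18 to 0.0035 for Irf1. Irf9 turned to -0.027 without parental replicate 1, and Parp14 ran from -0.098 without clone 4 to 0.31. With DESeq2, Oas2 had 0.18. The cause was not tested. No scaling moved the median of all genes by more than 0.1. Under a minimum mean of 50, 23 members remained to test. Members with few reads, such as Isg15, Ifit1, Ifit3, Ifi44 and Mx1, could not be compared with precision at the depth of the clones.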

Other observations

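The parental libraries disagreed in several immune genes that did not pass the test, of which B2m and Psmb10 are examples. B2m, the light chain of MHC class I, had normalised read counts of 1766, 1167 and 1320 in clones 4, 12 and 18, against 1311 and 217.1 in parental replicates 1 and 2. Psmb10, an immunoproteasome subunit, had 248.2, 268.4 and 302.8 in the clones, against 251.7 and 140.3 in the parental libraries. Both were called higher in the clones without parental replicate 1 (adjusted p = 0.00153 and 0.0254, limma), as was Bst2. Of the tested interferon response genes, 4 of 32 (12.5%) differed by more than 1.5 times between the parental libraries, against 12.2% of all genes tested.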
